A study of Mus musculus with 6 samples.

Results

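Cholesterol synthesis was examined in tick-bitten mouse ear skin through 31 genes. They held the sensors and processing proteins of the transcription factor SREBP2 and 20 enzymes of the pathway that leads from acetyl-CoA to cholesterol. Ggps1 is counted among these enzymes, although its product, geranylgeranyl diphosphate, belongs to a nonsterol branch. The others were 3 proteins that move sterols inside the cell, and 4 genes of the liver X receptors (LXR) and of sterol export. Genes were taken by symbol, and all 31 of the 31 symbols were among the 15667 genes listed. The libraries came from 3 female mice that lacked adiponectin (Adipo-/-, here KO) and from 3 wild-type littermates (Adipo+/+, WT) of the line B6;129-Adipoqtm1Chan/J, aged 7 to 8 weeks. Every mouse had carried 10 Ixodes scapularis nymphs for 48 h before a 3.5 mm punch was taken from a bite site on the ear, and skin without ticks was not analysed here. KO mice lack the hormone in the whole body from birth, so the comparison is of lifelong absence, and a punch of whole skin holds epidermis, hair follicles, sebaceous glands, fat, muscle and immune cells together. In such bulk samples fewer cells of a type and less RNA per cell cannot be told apart.

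Cells make cholesterol from acetyl-CoA through mevalonate, isoprenoid diphosphates, squalene and lanosterol. SREBP2 is made as a membrane protein of the endoplasmic reticulum. When membrane sterol is low, SCAP escorts it to the Golgi, where proteases release the part that enters the nucleus and switches on the enzymes of the pathway. When sterol is plentiful, INSIG proteins hold SCAP back, while oxysterols activate LXR, which raises the export pumps. In skin the epidermis makes much of its own cholesterol, which is a component of the barrier lipids, and sebaceous glands also run the pathway.

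Promoter windows of RefSeq (GRCm38.p6; 250 bases before to 50 bases after the start of transcription) were found for 25 of the 31 genes, and not for Abcg1, Fdft1, Fdps, Npc1, Sqle and Stard4. A few of them are shown because they hold letters through which SREBP2 or its partner NF-Y is known to bind: that of Hmgcs1, the gene with the highest level per length, that of Srebf2 itself, and that of Ggps1, which had the smallest p of the set. Capitals mark TCACNCCAC, the core of the sterol regulatory element, and CCAAT, the box of NF-Y, on either strand (ATTGG is CCAAT read on the other strand). No marked stretches overlap.
Hmgcs1, chr13:119690101-119690400, plus strand: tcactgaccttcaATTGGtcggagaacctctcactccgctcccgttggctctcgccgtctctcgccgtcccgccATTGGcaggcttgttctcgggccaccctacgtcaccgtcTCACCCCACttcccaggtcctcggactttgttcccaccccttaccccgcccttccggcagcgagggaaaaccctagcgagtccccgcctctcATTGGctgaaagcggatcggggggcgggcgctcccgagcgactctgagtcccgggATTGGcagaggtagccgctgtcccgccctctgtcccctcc
Srebf2, chr15:82147019-82147318, plus strand: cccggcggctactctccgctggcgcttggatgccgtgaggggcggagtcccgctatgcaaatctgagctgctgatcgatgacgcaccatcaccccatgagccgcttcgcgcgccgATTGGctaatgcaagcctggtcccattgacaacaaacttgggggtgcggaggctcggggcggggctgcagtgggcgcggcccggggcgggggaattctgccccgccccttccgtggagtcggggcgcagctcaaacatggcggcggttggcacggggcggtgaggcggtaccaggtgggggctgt
Ggps1, chr13:14063439-14063738, minus strand: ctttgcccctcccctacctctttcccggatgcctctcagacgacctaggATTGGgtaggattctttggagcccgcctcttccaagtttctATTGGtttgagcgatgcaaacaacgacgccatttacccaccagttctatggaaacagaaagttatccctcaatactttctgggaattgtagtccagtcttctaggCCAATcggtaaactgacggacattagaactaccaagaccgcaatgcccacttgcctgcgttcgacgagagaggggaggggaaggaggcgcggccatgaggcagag
The Hmgcs1 window held 1 sterol regulatory core, whose first base lay 137 bases before the start, and 4 NF-Y boxes. The Srebf2 window held 1 NF-Y box and the Ggps1 window 3, and neither held the core in these letters. Among the 25 genes with a window, 1 (4%) held the core, against 1.44% of 27025 genes with windows of the same length. CCAAT was in 20 of the 25 (80%), against 41.1% of all genes, and GGGCGG, the box of Sp1, was in 21 (84%), against 38.2%. The 5 genes without CCAAT in the window were Abca1, Acat2, Nr1h2, Nr1h3 and Scap. The motifs were chosen after values were known, and a match of letters is a description only.

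Levels are given as CPM, the reads of a gene scaled to a common library total. The libraries held, as implied by the lowest values, about 4130000 to 6070000 reads in WT and 3400000 to 6590000 reads in KO. Adipoq, the disrupted gene, stood at 30.5, 63.7 and 49.6 CPM in the WT libraries and at 0, 0.560 and 0 CPM in the KO libraries, as the 6 labels say. Keratinocyte, fibroblast and sebaceous gland markers, read to check the tissue, were above 0 in all 6 libraries (11 of 11, 8 of 8 and 11 of 11 genes). The libraries stood apart in hair follicle genes: the 18 markers summed to 11.4 and 14.0 CPM in WT replicates 1 and 2 but to 24271 CPM in WT replicate 3, and to 986 to 9612 CPM in KO, and 14 of the 18 were at 0 in at least 1 library. The mean log2 level of 18 of the 18 was nonetheless higher in KO, and none had an unadjusted p below 0.05 in limma.

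The order of the genes in this skin was read per kilobase (kb) of exon sequence in GENCODE M21, since a longer transcript yields more reads. Hmgcs1, which makes HMG-CoA, stood highest with a mean of 159 CPM per kb over the 6 libraries, and its lowest library (144) lay above the highest library of any other gene of the set. Msmo1 (75.1 CPM per kb), Sqle (66.5) and Fdps (58.5) followed, with ranges over the libraries that overlapped from each to the next. Cyp51 (52.3 CPM per kb), Srebf2 (51.8) and Idi1 (47.4) also had ranges that overlapped. By their means, Dhcr7 (42.1 CPM per kb), Scap (34.9) and Npc2 (29.9) came next. A broad middle of 13 genes, from Hsd17b7 (25.9 CPM per kb) to Pmvk (20.7), had ranges over the libraries that overlapped. These ranges do not compare 2 genes within the same library, so an overlap does not show that their order is open. At the low end, Ggps1, which makes geranylgeranyl diphosphate for the lipid anchors of small GTPases, was at 6.84 CPM per kb. That was below Fdps (58.5 CPM per kb), the enzyme that makes farnesyl diphosphate. Tm7sf2 (1.62 CPM per kb) and Nr1h3 (1.30) were lowest. Lbr, which shares the sterol reductase step with Tm7sf2, was at 23.5 CPM per kb. Nr1h2, the LXR found in most tissues, was at 23.2 CPM per kb, against 1.30 for Nr1h3, the LXR typical of liver, fat and macrophages. Tm7sf2 rested on 7 to 17 implied reads per library and Nr1h3 on 7 to 24, while every other gene had at least 86.

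**Figure D1:**
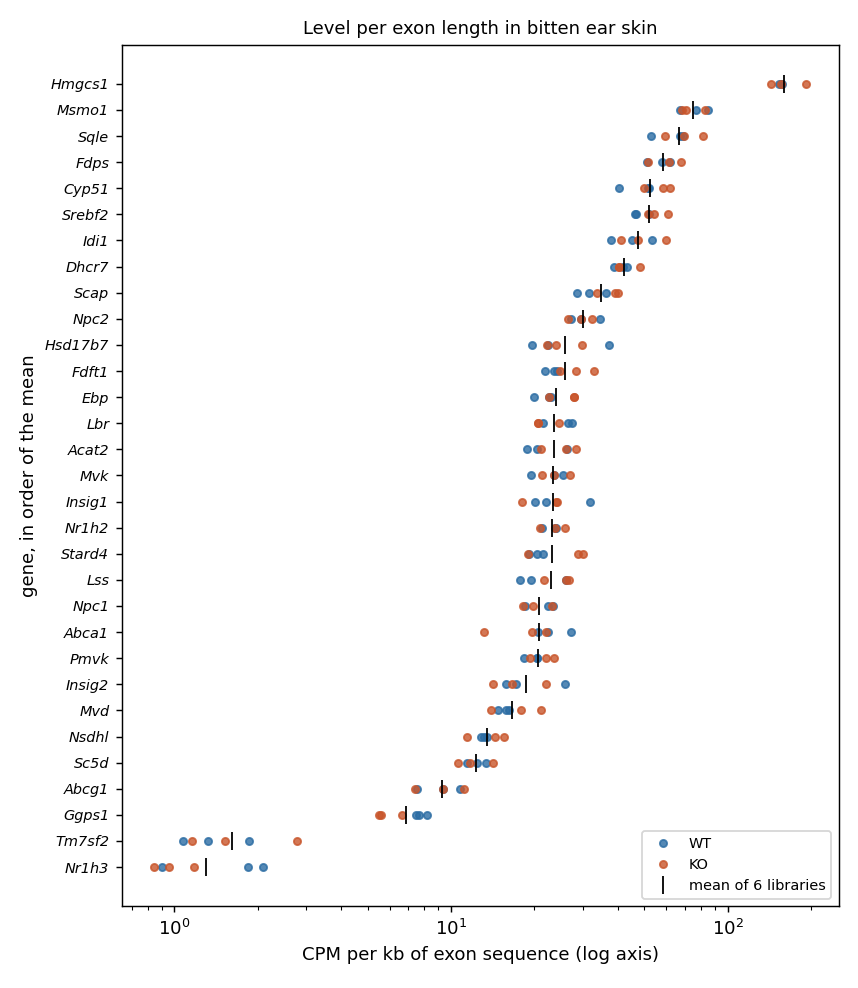
CPM per kb of exon sequence (log axis) for each of the 31 genes, 1 point per library in blue (WT) or orange (KO), with the mean of 6 libraries as a bar. Hmgcs1 stands clear of the rest at 159 CPM per kb, and Tm7sf2 and Nr1h3 lie lowest, at 1.62 and 1.30.

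To ask whether the loss of adiponectin changed sterol genes at the bite site, KO was compared with WT for each gene in a limma fit over the 14306 genes whose mean reached 1 CPM, and all 31 sterol genes passed this filter. None of the 31 differed after Benjamini-Hochberg adjustment over all genes tested (limma, smallest adjusted p = 0.998), where 0.014% of all genes were called. An unadjusted p below 0.05 in limma was reached by 1 of the 31 (Ggps1, 3.23%), against 2.88% of all genes. Ggps1 was lower in KO, against 1.82% of all genes, and 0 of the 31 were higher, against 1.06%. WT and KO values did not overlap in 2 of the 31 (6.45%), against 7.84% of all genes. KO was the lower group for Ggps1, as for 4.89% of all genes, and the higher group for Fdft1, as for 2.95%. These counts were near the background. Calls in that unadjusted count over all genes had KO as the lower group in 63.1% of cases, and in 50.6% or 45.4% when libraries were rescaled by the median of ratios or by quantile normalization. The smallest p that an exact permutation test of 3 libraries against 3 can reach is 0.1. The differences were also small in size. On the log2(CPM + 0.5) scale the fold changes ran from -0.53 (Nr1h3) to 0.31 (Stard4), with a median of 0.067, beside a median of -0.032 over all tested genes. For 29 of the 31 genes the 95% interval of the fold change lay wholly within a 2-fold change in either direction, and for 21 within 1.5-fold. Of all 14306 tested genes, 10651 lay within 2-fold and 6168 within 1.5-fold. Among the 31, the exceptions to the 2-fold count were Tm7sf2 and Nr1h3, the genes of lowest depth.

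**Figure D2:**
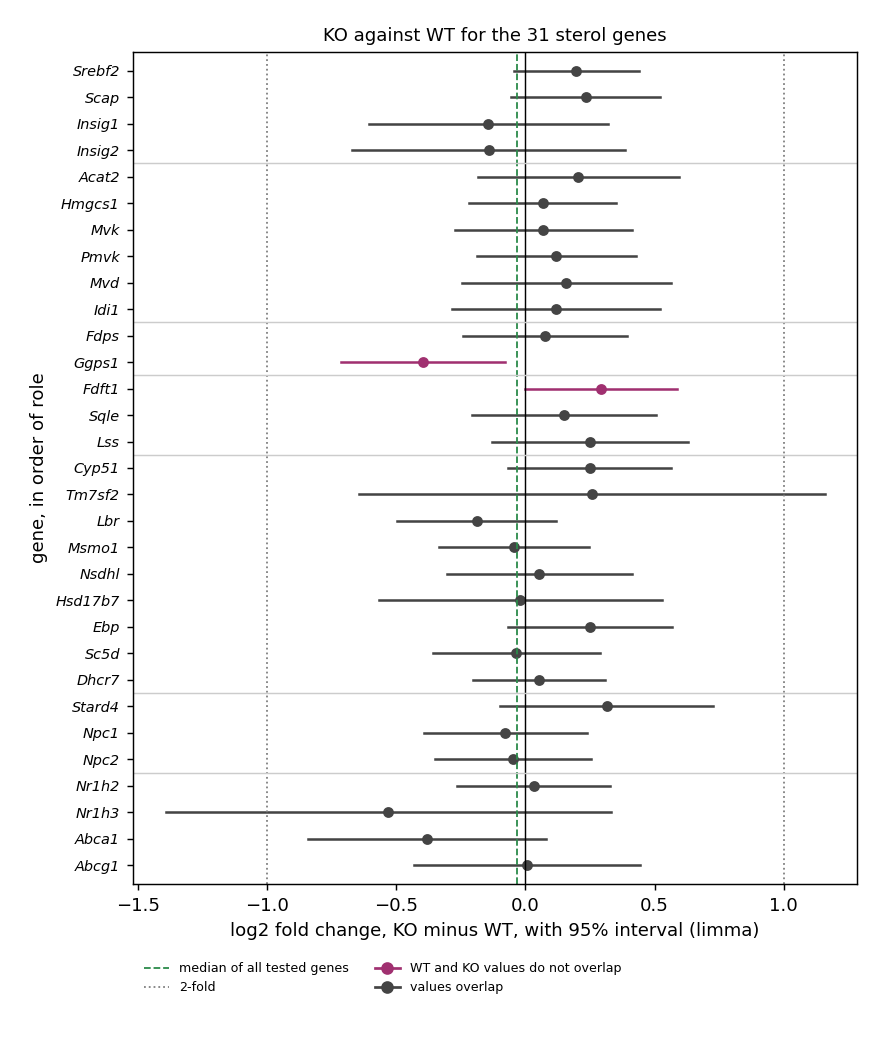
Log2 fold change of KO against WT for the 31 genes in order of role, with the 95% interval from limma (3 libraries a group), the median of all tested genes as a dashed line and 2-fold changes as dotted lines. Intervals of 29 genes lie within the dotted lines, and of Ggps1 and Fdft1 (purple), whose values do not overlap, only that of Ggps1 leaves out 0.

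Sensing and SREBP processing came first. Srebf2, which encodes SREBP2 (chromosome 15, 82147269 to 82204960, plus strand), was at 264, 236 and 235 CPM in WT replicates 1, 2 and 3, against 308, 275 and 262 CPM in KO replicates 1, 2 and 3. The highest WT library lay just above the lowest KO library, so the groups overlapped, and KO was above WT on average by 0.20 on the log2 scale (95% interval -0.043 to 0.44, limma unadjusted p = 0.095, adjusted p = 0.998). Scap, the escort of SREBP2 (chromosome 9, 110333288 to 110384949, plus strand), was at 136 ± 16.5 CPM over the WT libraries and 159.5 ± 14.5 CPM over the KO libraries (KO minus WT 0.23 on the log2 scale, 95% interval -0.055 to 0.52; mean ± SD, n = 3 a group here and below). Leaving out WT replicate 1 gave 0.32 for Scap (limma unadjusted p = 0.0326, adjusted p = 0.956). Both INSIG genes had lower means in KO, and both varied more within WT than within KO. Insig1, which anchors the SCAP complex and is itself a target of SREBP2 (chromosome 5, 28071412 to 28078662, plus strand), was at 59.3, 54.1 and 85.7 CPM in WT replicates 1, 2 and 3, against 64.5, 65.3 and 48.5 CPM in KO replicates 1, 2 and 3 (KO minus WT -0.14 on the log2 scale, 95% interval -0.61 to 0.32). Insig2, the other anchor (chromosome 1, 121304353 to 121332589, minus strand), was at 46.5, 50.9 and 76.5 CPM in WT replicates 1, 2 and 3, against 49.2, 65.0 and 42.0 CPM in KO replicates 1, 2 and 3 (KO minus WT -0.14 on the log2 scale, 95% interval -0.67 to 0.38). WT replicate 3 was the highest library for both INSIG genes and KO replicate 3 the lowest, and without WT replicate 3 their log2 fold changes were 0.055 and 0.074. WT replicate 3 was also the library richest in hair follicle transcripts. With the hair follicle score of each library (the mean log2(CPM + 0.5) of its markers) as a covariate, the log2 fold changes were -0.33 for Insig1 (limma unadjusted p = 0.0539, adjusted p = 0.814) and -0.36 for Insig2 (limma unadjusted p = 0.0418, adjusted p = 0.782). The single values of the INSIG genes are given because of this library and were chosen after they were seen.

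The 6 genes that lead from acetyl-CoA to the first isoprenoid all had a KO mean above the WT mean, by 0.067 to 0.21 on the log2 scale, and none passed the test (limma unadjusted p = 0.258 to 0.648). Acat2, the thiolase that starts the pathway (chromosome 17, 12943042 to 12960725, minus strand), had the smallest p of the group and was at 65.3, 50.9 and 46.8 CPM in WT replicates 1, 2 and 3, against 70.5, 52.5 and 64.7 CPM in KO replicates 1, 2 and 3 (KO minus WT 0.21 on the log2 scale, 95% interval -0.18 to 0.59). Its levels ran from the lowest in WT replicate 3 to the highest in KO replicate 1, and the groups overlapped. Its difference ranged over 0.11 to 0.34 as single libraries were left out. Hmgcs1, the HMG-CoA synthase (chromosome 13, 119690351 to 119708260, plus strand), was at 539.7 ± 7.59 CPM over the WT libraries and 569 ± 86.9 CPM over the KO libraries (KO minus WT 0.067 on the log2 scale, 95% interval -0.22 to 0.35). Its WT libraries were close to each other, with a coefficient of variation (SD as a percent of the mean) of 1.41%, against 15.3% in KO, where replicate 1 reached 667 CPM. Without KO replicate 1 its log2 fold change was -0.053. Mvk, the mevalonate kinase, was at 45.5 ± 5.98 CPM over the WT libraries and 47.7 ± 5.51 CPM over the KO libraries (0.070 on the log2 scale). Pmvk, which adds the next phosphate, was at 33.9 ± 2.06 CPM over the WT libraries and 37.0 ± 3.63 CPM over the KO libraries (0.12). Mvd, the decarboxylase that follows, was at 27.3 ± 1.26 CPM over the WT libraries and 30.9 ± 6.33 CPM over the KO libraries (0.16, and 0.022 when KO replicate 1 was left out). Idi1, the isomerase that yields dimethylallyl diphosphate, was at 137 ± 23.4 CPM over the WT libraries and 149 ± 28.6 CPM over the KO libraries (0.12). For these 4 enzymes the 95% intervals held 0 and ended between 0.41 and 0.56 on the side of higher KO levels, and Mvk and Idi1 changed sign when WT replicate 3 or KO replicate 1 was left out.

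Fdps and Ggps1, which make isoprenoid diphosphates, had mean differences of opposite sign. Fdps, which makes farnesyl diphosphate for squalene and for farnesyl anchors (chromosome 3, 89093588 to 89101967, minus strand), was at 82.6 ± 7.78 CPM over the WT libraries and 87.4 ± 12.1 CPM over the KO libraries (KO minus WT 0.076 on the log2 scale, 95% interval -0.24 to 0.39). Ggps1 (chromosome 13, 14049790 to 14063488, minus strand) was at 33.6, 32.8 and 35.9 CPM in WT replicates 1, 2 and 3, against 24.4, 24.1 and 29.1 CPM in KO replicates 1, 2 and 3. Every KO library was below every WT library. Its log2 fold change was -0.40 (SE 0.137, 95% interval -0.71 to -0.079), with an unadjusted p of 0.0208 in limma that did not survive adjustment (adjusted p = 0.998). The direction of Ggps1 was the same under all 19 alternatives, with log2 fold changes from -0.48 to -0.35 and adjusted p from 0.768 to 1 in limma. Its unadjusted p was 0.0677, 0.0606 and 0.0646 when WT replicate 3, KO replicate 1 or KO replicate 2 was left out. Whether the difference between Fdps and Ggps1 is itself beyond the spread was not tested.

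The 3 enzymes from farnesyl diphosphate to lanosterol had KO means above the WT means, by 0.15 to 0.29 on the log2 scale. Fdft1, the squalene synthase that commits isoprenoids to sterols (chromosome 14, 63145151 to 63179578, minus strand), was at 89.6, 86.9 and 80.6 CPM in WT replicates 1, 2 and 3, against 121, 91.4 and 104 CPM in KO replicates 1, 2 and 3. The lowest KO library exceeded the highest WT library narrowly, 91.4 against 89.6 CPM. Its log2 fold change was 0.29 (SE 0.127, 95% interval -0.0028 to 0.59, limma unadjusted p = 0.0517, adjusted p = 0.998). The unadjusted p of Fdft1 moved to the other side of 0.05 under 7 of the 19 alternatives in limma, with adjusted p from 0.764 to 1, and the log2 fold change was 0.19 without KO replicate 1 and 0.39 with KO replicate 2 left out instead. The listed span of Fdft1 overlaps that of Ctsb on the other strand by 773 bases, and its implied reads were fractions in all 6 libraries, so part of its level may be shared. Sqle, the squalene epoxidase that oxygenates the chain (chromosome 15, 59315092 to 59331193, plus strand), was at 174 ± 24.2 CPM over the WT libraries and 193 ± 30.6 CPM over the KO libraries (KO minus WT 0.15 on the log2 scale, 95% interval -0.21 to 0.50), and the difference was 0.029 without WT replicate 3 and 0.035 if KO replicate 1 was left out. Lss, which folds it into lanosterol (chromosome 10, 76531605 to 76557139, plus strand), was at 98.3 ± 20.5 CPM over the WT libraries and 116 ± 13.1 CPM over the KO libraries (KO minus WT 0.25 on the log2 scale, 95% interval -0.13 to 0.63). Leaving out WT replicate 1 gave 0.41 for Lss (limma unadjusted p = 0.0184, adjusted p = 0.956), and leaving out WT replicate 3 gave 0.14. WT replicate 3 was the lowest library and KO replicate 1 the highest for all 3.

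The 9 enzymes from lanosterol to cholesterol were mixed, with 5 higher and 4 lower mean values in KO and a median log2 fold change of 0.052, although Hsd17b7, among the lower ones, turned to the higher side under all 3 rescalings (by at most 0.021). Cyp51, the demethylase that acts on lanosterol first (chromosome 5, 4080674 to 4104697, minus strand), had the smallest p of them and was at 202, 204 and 159 CPM in WT replicates 1, 2 and 3, against 244, 196 and 229.8 CPM in KO replicates 1, 2 and 3. KO replicate 2 lay inside the WT range, and the other KO libraries lay above it (KO minus WT 0.25 on the log2 scale, 95% interval -0.066 to 0.56, limma unadjusted p = 0.105, adjusted p = 0.998). Without WT replicate 3 the difference was 0.13. Ebp, the isomerase that shifts a ring double bond, was at 38.0 ± 2.80 CPM over the WT libraries and 45.4 ± 5.31 CPM over the KO libraries (KO minus WT 0.25 on the log2 scale, 95% interval -0.069 to 0.57), and the difference was 0.35 without KO replicate 2 (limma unadjusted p = 0.0435, adjusted p = 0.998). Dhcr7, the reductase of the last step, whose substrate is also the skin precursor of vitamin D, was at 137 ± 7.78 CPM over the WT libraries and 142 ± 14.6 CPM over the KO libraries (KO minus WT 0.052 on the log2 scale, 95% interval -0.20 to 0.31). Nsdhl, a dehydrogenase of the demethylation complex, was at 28.5 ± 0.656 CPM over the WT libraries and 29.9 ± 4.71 CPM over the KO libraries (KO minus WT 0.054 on the log2 scale, 95% interval -0.30 to 0.41). The low gene Tm7sf2, a sterol reductase, was at 2.40 ± 0.681 CPM over the WT libraries and 3.08 ± 1.44 CPM over the KO libraries (KO minus WT 0.26 on the log2 scale, 95% interval -0.64 to 1.16), so that even a 2-fold change could not be set aside for it. Lbr, which carries out the same reduction and also tethers chromatin to the nuclear envelope, was at 87.9 ± 10.9 CPM over the WT libraries and 76.9 ± 7.76 CPM over the KO libraries (KO minus WT -0.19 on the log2 scale, 95% interval -0.50 to 0.12). Msmo1, the oxidase that starts removal of the methyl groups left after Cyp51, was at 156 ± 18.0 CPM over the WT libraries and 151 ± 15.7 CPM over the KO libraries (KO minus WT -0.044 on the log2 scale, 95% interval -0.33 to 0.25). Sc5d, a desaturase, was at 60.3 ± 4.71 CPM over the WT libraries and 59.2 ± 8.94 CPM over the KO libraries (KO minus WT -0.034 on the log2 scale, 95% interval -0.36 to 0.29). Hsd17b7, the ketoreductase of the same complex as Nsdhl, was at 134 ± 47.7 CPM over the WT libraries and 128 ± 20.2 CPM over the KO libraries (KO minus WT -0.019 on the log2 scale, 95% interval -0.57 to 0.53), and most of its spread came from WT replicate 1, at 188 CPM, against 113 and 99.2 CPM in the other WT libraries. Without WT replicate 1 its log2 fold change was 0.26.

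**Figure D3:**
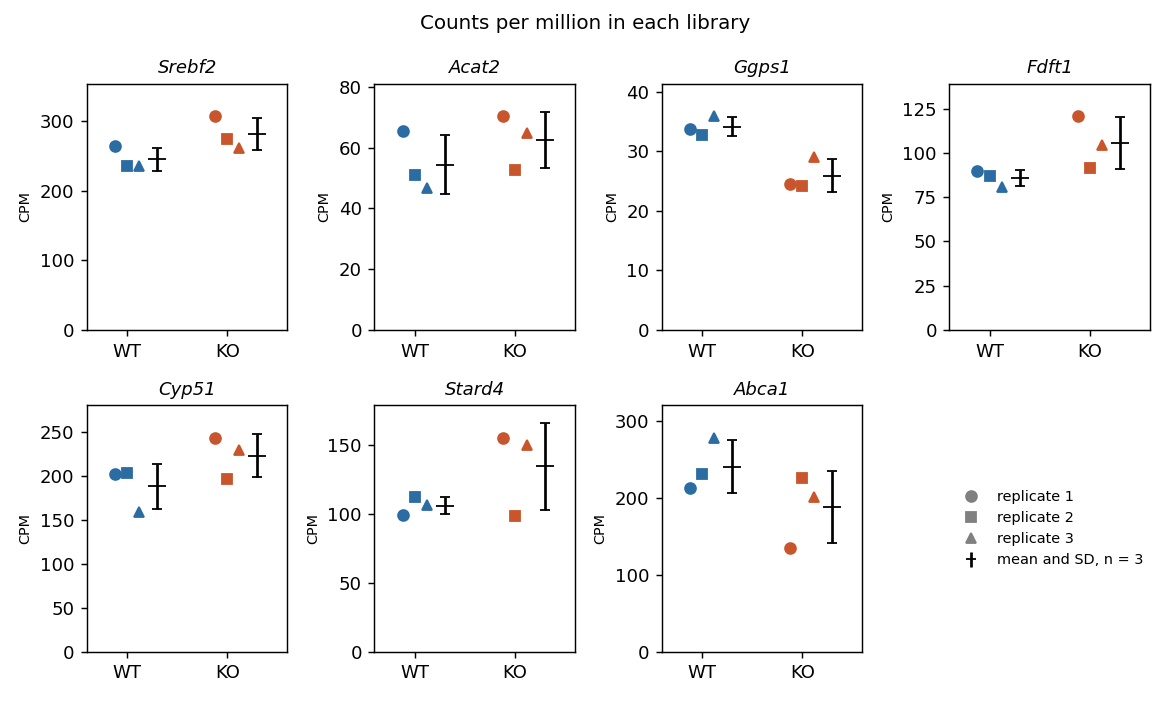
CPM in each library for the gene of smallest p in each role and for the genes whose groups do not overlap, with the replicate number as the symbol and the group mean and SD (n = 3) beside the points. The KO points of Ggps1 (24.1 to 29.1 CPM) all lie below its WT points (32.8 to 35.9 CPM), and KO replicate 2 of Stard4 lies apart from the other KO libraries.

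Sterol transport inside the cell was examined next. Stard4, a soluble carrier of cholesterol between membranes and a target of SREBP2, was at 99.2, 112 and 107 CPM in WT replicates 1, 2 and 3, against 155, 98.4 and 149.8 CPM in KO replicates 1, 2 and 3. KO replicates 1 and 3 were above all WT libraries, while KO replicate 2 was below all of them. The log2 fold change was 0.31 (95% interval -0.10 to 0.73, limma unadjusted p = 0.116, adjusted p = 0.998), and without KO replicate 2 it was 0.53 (limma unadjusted p = 0.00301, adjusted p = 0.812). Over its 19 alternatives the adjusted p ranged from 0.812 to 1. Npc1, the membrane protein through which cholesterol leaves the lysosome, was at 112 ± 13.6 CPM over the WT libraries and 106 ± 13.1 CPM over the KO libraries (KO minus WT -0.077 on the log2 scale, 95% interval -0.39 to 0.24). Npc2, the soluble protein that hands cholesterol to it (chromosome 12, 84754559 to 84773112, minus strand), was at 100.4 ± 12.5 CPM over the WT libraries and 97.0 ± 9.71 CPM over the KO libraries (KO minus WT -0.046 on the log2 scale, 95% interval -0.35 to 0.26).

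Of the LXR and export genes, Abca1 had the smallest p. Abca1, the pump that loads cholesterol onto lipid-poor apolipoproteins (chromosome 4, 53030789 to 53159895, minus strand), was at 212, 230.5 and 278 CPM in WT replicates 1, 2 and 3, against 135, 226 and 201 CPM in KO replicates 1, 2 and 3. KO replicate 1 was far below the other libraries, KO replicate 2 lay within the WT range, and WT replicate 3 was highest. The log2 fold change was -0.38 (95% interval -0.84 to 0.078, limma unadjusted p = 0.092, adjusted p = 0.998), and it was -0.16 without KO replicate 1. With KO replicate 2 left out instead it was -0.53 (limma unadjusted p = 0.0343, adjusted p = 0.998). Abcg1, the pump that passes cholesterol on to larger lipoproteins (chromosome 17, 31057694 to 31117981, plus strand), was at 62.9 ± 11.2 CPM over the WT libraries and 63.4 ± 12.8 CPM over the KO libraries (KO minus WT 0.0074 on the log2 scale, 95% interval -0.43 to 0.45). Nr1h2 (chromosome 7, 44549616 to 44553965, minus strand) was at 46.1 ± 3 CPM over the WT libraries and 47.2 ± 4.94 CPM over the KO libraries (KO minus WT 0.032 on the log2 scale, 95% interval -0.26 to 0.33). Nr1h3 (chromosome 2, 91184061 to 91195116, minus strand) was at 3.46 ± 1.34 CPM over the WT libraries and 2.13 ± 0.357 CPM over the KO libraries (KO minus WT -0.53 on the log2 scale, 95% interval -1.39 to 0.33), with 4.48 and 3.96 CPM in WT replicates 2 and 3 and 1.94 CPM in WT replicate 1, the last inside the KO range. Leaving out WT replicate 1 gave -0.85 for Nr1h3 (limma unadjusted p = 0.0432, adjusted p = 0.956), and leaving out WT replicate 2 gave -0.33. Macrophage markers, which can go with Nr1h3 and Abca1, summed to 781 to 1343 CPM in WT and 750.4 to 1313 CPM in KO (10 of 10 found, none at 0), with a lower mean log2 level in KO for 8 of the 10, and their part in these values was not tested. Adipocyte markers summed to 579 to 868 CPM in WT and 349.7 to 859 CPM in KO, with the lowest sum in KO replicate 1 (11 of 11 found, none at 0). All 11 had a lower mean log2 level in KO, 3 of them at an unadjusted p below 0.05 in limma. Skeletal muscle markers were likewise lower in mean log2 level in 10 of 10, 3 of them at an unadjusted p below 0.05, with sums of 4720 to 6051 CPM in WT and 2929 to 5709 CPM in KO, again lowest in KO replicate 1. Over all tested genes, 1.82% were lower in KO at an unadjusted p below 0.05 in limma. The part of fat and muscle in the values of the LXR and export genes was not tested.

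**Figure D4:**
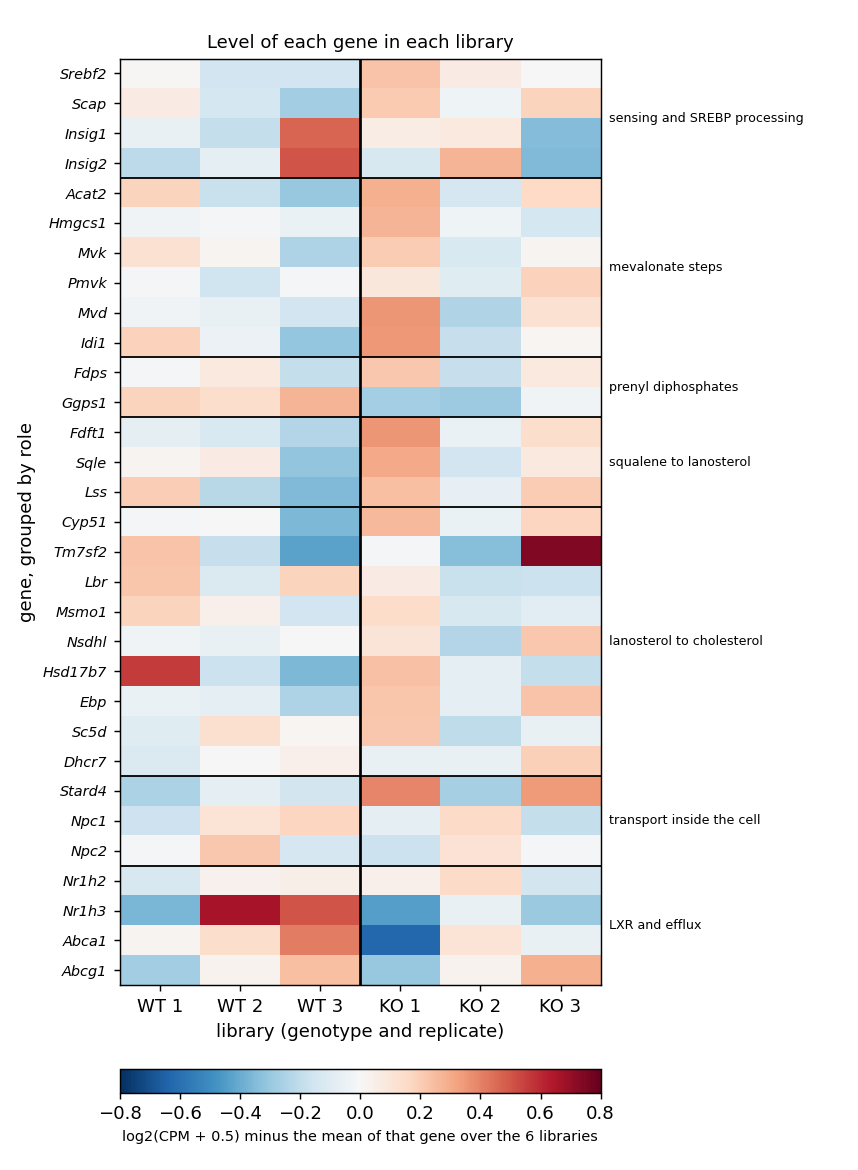
Heat map of log2(CPM + 0.5) in each library minus the mean of that gene over the 6 libraries, with genes as rows grouped by role and libraries as columns. Enzyme rows are mostly red in KO replicate 1 and blue in WT replicate 3 and KO replicate 2, while Abca1 is lowest in KO replicate 1 and Insig1 and Insig2 are highest in WT replicate 3.

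The enzymes differed more between single libraries than between the genotypes. Each value was set against the mean of its gene over the 6 libraries. The mean deviation of the 20 enzymes was 0.081, -0.047 and -0.16 on the log2 scale in WT replicates 1, 2 and 3, and 0.18, -0.15 and 0.093 in KO replicates 1, 2 and 3. The group means differed by 0.084, less than the SD within WT (0.121) or KO (0.168), and the groups overlapped. KO replicate 1 was the highest of the 6 libraries for 11 of the 20 enzymes and lay above the gene mean for 17. WT replicate 3 was the lowest for 12, and KO replicate 2 lay below the gene mean for all 20. The summed level of the 20 enzymes was 2309, 2154 and 1969 CPM in the WT replicates and 2574, 2052 and 2225 CPM in the KO replicates. Among the enzymes 15 of 20 had a higher mean in KO, where 43.3% of all tested genes did. The share over all genes depended on the scaling. With median-of-ratios rescaling 16 of the 20 enzymes and 49.3% of all tested genes were higher in KO. With quantile normalization these were 16 and 51.3%. Without rescaling, the count of enzymes was 11 with KO replicate 1 left out and 18 with KO replicate 2 left out. The enzymes share their libraries, so they are not independent counts of a direction. Within a group the coefficient of variation over the 31 genes had a median of 12.1% in WT and 14.1% in KO.

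**Figure D5:**
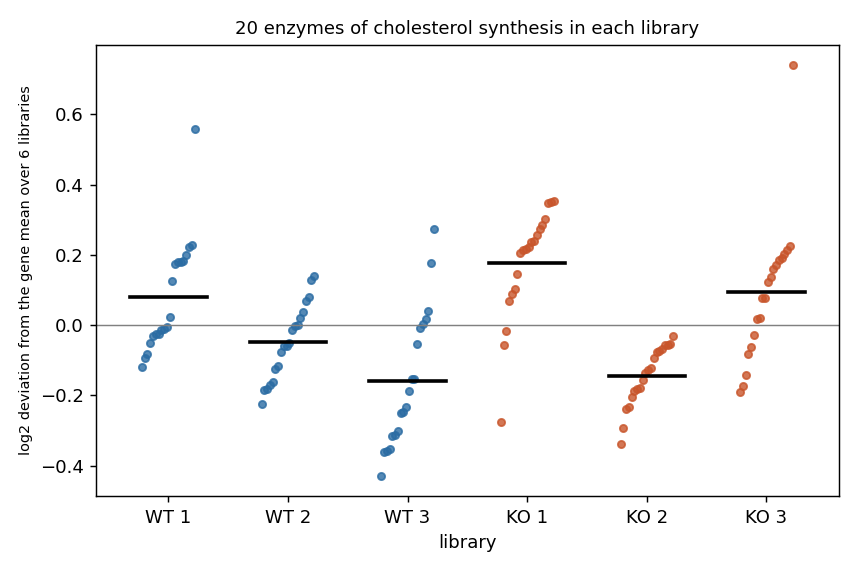
Log2 deviation of each of the 20 enzymes from its mean over the 6 libraries, 1 point per enzyme sorted within each library, blue for WT and orange for KO, with the mean of the 20 as a bar. The bars range from -0.16 in WT replicate 3 to 0.18 in KO replicate 1 and overlap between the genotypes.

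Markers of cells that could carry the pathway were read beside these values. Sebaceous gland markers summed to 3922 to 5302 CPM in WT and 2962 to 3995 CPM in KO, with 10 of 11 at a lower mean log2 level in KO and none at 0. An unadjusted p below 0.05 in limma was reached by 2 of the 11, against 2.88% of all genes. KO replicate 3 had the lowest sebaceous sum and a mean enzyme deviation of 0.093. WT replicate 1 had the highest sebaceous sum (5302 CPM) and a mean enzyme deviation of 0.081. The order of the libraries depended on the measure. By the mean log2(CPM + 0.5) of the sebaceous markers, the score used as a covariate below, WT replicate 3 was highest (5.74, against 5.68 in WT replicate 1). Its sum was the lowest of the WT libraries (3922 CPM), and its mean enzyme deviation was -0.16. KO replicate 3 was lowest by both measures. Keratinocyte markers summed to 36682 to 48728 CPM in WT and 42261 to 56670 CPM in KO, and 11 of 11 had a higher mean log2 level in KO, none at an unadjusted p below 0.05 in limma. WT replicate 3 and KO replicate 2, the libraries with the lowest enzyme levels, had the lowest keratinocyte sums (36682 and 42261 CPM) and the highest hair follicle sums (24271 and 9612 CPM). The part of keratinocyte content in the enzyme values was not tested. In the limma fit with that hair follicle covariate, 7 of the 31 genes reached an unadjusted p below 0.05 (22.6%), against 6.17% of all genes in the same fit, and none passed adjustment (smallest adjusted p = 0.6, for Cyp51). Their log2 fold changes were 0.36 for Cyp51, 0.35 for Fdft1, 0.37 for Lss and 0.32 for Scap, and -0.50 for Abca1, -0.41 for Ggps1 and -0.36 for Insig2. The score came from the same 6 libraries, and the genes share these libraries, so the 7 are not independent counts. With the sebaceous gland score as the covariate only Ggps1 had an unadjusted p below 0.05 (limma unadjusted p = 0.0492), and its adjusted p was 0.999. This was 3.23% of the 31, against 3.28% of all genes in that fit.

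The rest of sterol biology was followed through 51 further genes of the pathway, of which 49 were tested. None passed adjustment in limma (smallest adjusted p = 0.998), 1 had an unadjusted p below 0.05 with a lower level in KO (all genes 1.82%) and 0 with a higher level (all genes 1.06%), and WT and KO did not overlap in 2 (all genes 7.84%), so these counts were near the background. The median log2 fold change was -0.040, beside -0.032 over all genes. Acss2, which makes acetyl-CoA from acetate and is a target of SREBP, was the gene with an unadjusted p below 0.05 (0.0489 in limma, adjusted p = 0.998). It was at 22.0, 26.2 and 21.8 CPM in WT replicates 1, 2 and 3, against 12.7, 17.7 and 20.3 CPM in KO replicates 1, 2 and 3, with every KO library below every WT library (-0.48 on the log2 scale, SE 0.204). Stard3, a late endosomal carrier of sterol and the other gene whose groups did not overlap, was at 13.1 ± 0.381 CPM over the WT libraries and 10.5 ± 1.05 CPM over the KO libraries (-0.31 on the log2 scale, limma unadjusted p = 0.113). It is named because its groups stood apart. In the nonsterol isoprenoid branch, 10 of 13 genes had a lower mean level in KO, where 8106 of the 14306 tested genes did. None of the 13 had an unadjusted p below 0.05 in limma, and their median log2 fold change was -0.068. The genes of SREBP processing and sterol-regulated degradation (9 tested) had fold changes from -0.17 to 0.25 on the log2 scale. Sterol carriers (14 tested) ranged from -0.31 to 0.15, and oxysterol enzymes and other LXR targets (7 tested) from -0.27 to 0.79. The 2 genes that were not tested, Soat2 and Lcat, had means under 1 CPM.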

How the data were processed

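RNA-seq was done on 6 libraries of bitten ear skin, grouped by the genotype in their labels. The authors trimmed reads, aligned them to mm10 with STAR (2.7.3a per the labels), and counted them by the expectation-maximization algorithm in Partek, in which 1 read may be split between genes. The deposited values are CPM: the authors divided gene counts by the library total and added 0.0001, which was subtracted here. The sources used here do not state the strand setting of the counts. Gene positions were taken from the deposited file (GRCm38, 1-based, with listed ends lowered by 1). Depth was read from the lowest values, of which 91.8% to 92.6% below 20 reads lay within 0.1 of a whole multiple of 1 step. At these depths 3 reads were 0.455 to 0.881 CPM, counting error only. Implied reads were fractions in at least 1 library for Acat2, Fdft1 and Npc1.

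KO was compared with WT in limma (version 3.58.1, R 4.3.3; lmFit, eBayes with its trend option, two-sided, no covariate) on log2(CPM + 0.5), a scale that understates the change of low genes. Genes under a mean of 1 CPM were not tested, and Benjamini-Hochberg adjustment ran over all genes tested. A count model was not used because reads could be recovered only in part. Each library came from 1 mouse. The fit was tested on simulated data in which the spread added between libraries was the same for all genes and cell content did not shift. That test does not show how the fit performs on these libraries. Single library values are given for genes with an unadjusted p below 0.05, groups that do not overlap, or the smallest p of their role. The genes, lists and rule were chosen with earlier results of these data known. Alternatives were other pseudocounts, filters and scalings, eBayes options, array weights, a replicate block, 2 marker covariates and leaving out each library.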

Additional observations from a re-analysis of the deposited data

How the results depend on the processing

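None of the 31 genes passed adjustment in limma under any of the 19 alternatives (18 for Tm7sf2 and Nr1h3, which the filter at a mean of 5 CPM removed; smallest adjusted p = 0.6), and 15 of the 31 kept their direction in all those run for them. At an unadjusted p below 0.05 in limma, lower sterol genes numbered 1 as reported, 2 with the replicate block and 3 with the hair follicle covariate. Higher ones numbered 0 as reported, 4 with the hair follicle covariate, and 1 each with median-of-ratios rescaling, quantile normalization, the total without Rn45s (the ribosomal precursor RNA), array weights and the replicate block. Leaving out each library gave 0 to 2 lower sterol genes, with 0 when WT replicate 3 or KO replicate 1 was left out and 2 without WT replicate 1, and 0 to 3 higher ones, with 2 without WT replicate 1 and 3 without KO replicate 2. Their median log2 fold change ran from 0.021 without KO replicate 1 to 0.15 without KO replicate 2. Over all genes, 2 passed adjustment as reported, 9 with the hair follicle covariate, 0 with the sebaceous gland covariate (469 at an unadjusted p below 0.05 in limma), and 0 to 16 with each library left out (0 without WT replicate 2, 16 without WT replicate 3, otherwise 2). The 260 lower genes at an unadjusted p below 0.05 became 420 with array weights, 414 with the replicate block, 580 with the hair follicle covariate, and 147 to 390 with each library left out, the lowest without WT replicate 2 and the highest without WT replicate 3. The 152 higher genes became 232 with quantile normalization, 303 with the hair follicle covariate, 99 with the sebaceous gland covariate, and 89 to 320 with each library left out, the lowest without KO replicate 3 and the highest without WT replicate 3. The share of these calls that were lower was 63.1% as reported, 50.6% with median-of-ratios rescaling and 45.4% with quantile normalization. Same-numbered libraries deviated together in 1 of 3 pairs only (correlations 0.376, -0.306 and -0.222 across genes). WT replicate 3 with KO replicate 2 gave 0.449. With 3 libraries a group, each set against its group mean, these correlations cannot tell whether the replicate number pairs the libraries. Log2 fold changes with a changed sign were as follows. With the sebaceous gland covariate they were Insig1 0.26, Insig2 0.16, Tm7sf2 -0.19, Lbr 0.024, Msmo1 0.010, Nsdhl -0.0097, Hsd17b7 0.18, Sc5d 0.020, Dhcr7 -0.073 and Abcg1 -0.23. With the hair follicle covariate they were Msmo1 0.037, Hsd17b7 0.13, Npc2 0.0017, Nr1h2 -0.014 and Abcg1 -0.084. With rescaling by the median of ratios it was Hsd17b7 0.010. With quantile normalization it was Hsd17b7 0.021. With the total without Rn45s it was Hsd17b7 0.00025. With array weights it was Hsd17b7 0.042. With each library left out in turn, the fold changes that crossed 0 ranged over Insig1 -0.27 to 0.055, Insig2 -0.31 to 0.074, Hmgcs1 -0.053 to 0.15, Mvk -0.037 to 0.15, Idi1 -0.026 to 0.24, Fdps -0.014 to 0.19, Tm7sf2 -0.049 to 0.49, Msmo1 -0.13 to 0.036, Nsdhl -0.039 to 0.18, Hsd17b7 -0.20 to 0.26, Sc5d -0.15 to 0.059, Dhcr7 -0.031 to 0.094, Npc2 -0.12 to 0.050, Nr1h2 -0.037 to 0.11 and Abcg1 -0.13 to 0.16. The cause was not tested. For Tm7sf2 and Nr1h3 depth limits what can be seen.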
